A study of Mus musculus with 10 samples.

Results

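Toll-like receptor genes and the genes that work directly with them were followed in mouse colon RNA. The set held 10 genes, listed by symbol with earlier results of these data known. These were the receptors Tlr1, Tlr2, Tlr3, Tlr4, Tlr5, Tlr7 and Tlr9, the adaptor Myd88, the lipopolysaccharide co-receptor Cd14 and the amplifying receptor Trem1. They are 10 of the 29320 genes in the count table, and all 10 passed the low-count filter that left 20472 genes for testing. The RNA was sequenced from 4 groups of 8-week-old female mice sampled on Day 5: ERdj5-KO mice given 2% dextran sulfate sodium (DSS, a polysaccharide that injures the colon lining) in their water for 5 days (3 libraries), untreated ERdj5-KO mice (2 libraries), WT mice given the same DSS course (3 libraries) and untreated WT mice (2 libraries). ERdj5, encoded by Dnajc10, is a reductase of the endoplasmic reticulum that takes part in clearing misfolded proteins. The KO is a whole-animal knockout obtained from a repository, the WT mice were C57BL/6 mice from a vendor, and whole colon tissue was used, so that epithelium, muscle and immune cells were measured together.

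Toll-like receptors bind microbial molecules and pass the signal on through adaptor proteins to NF-κB and interferon regulatory factors. Tlr1, Tlr2, Tlr4 and Tlr5 encode receptors of the cell surface, for bacterial lipoproteins (TLR2 paired with TLR1 or TLR6), lipopolysaccharide (TLR4 with CD14) and flagellin (TLR5), whereas Tlr3, Tlr7 and Tlr9 encode endosomal receptors for nucleic acids. MyD88 is the adaptor of all of these except TLR3, and TREM1, a receptor of neutrophils and monocytes, amplifies their output through the adaptor DAP12. In the gut these receptors are found on epithelial cells and on immune cells below them.

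Library totals ran between 49689389 and 72197887 counts. Dnajc10, the targeted gene, was read at 23.9 to 30.4 CPM in the KO DSS libraries, 18.4 and 20.0 CPM in the untreated KO libraries, 121 to 140 CPM in the WT DSS libraries and 113 and 132 CPM in the untreated WT libraries, and no KO library reached the level of a WT library (CPM are counts scaled to library size, here with TMM factors). No pair of libraries within a group agreed to within counting error (mean chi-square per gene 36.8 to 153). The labels number the colons within a group without saying more of the animals, so p-values measure the spread between these libraries. Epithelial markers were read throughout (summed level 13129 to 19797 CPM over 10 genes in the KO DSS libraries and 16741 to 18150 CPM in the untreated WT libraries). Smooth muscle markers differed widely between groups: 8 summed markers stood at 476 to 831 CPM in the KO DSS libraries, 8385 and 10031 CPM in the untreated KO libraries, 2421 to 4457 CPM in the WT DSS libraries and 2757 and 4342 CPM in the untreated WT libraries. Between the DSS-treated groups edgeR also called 4 of 6 T cell, 3 of 6 dendritic cell and 1 of 5 fibroblast markers lower in KO colons and 2 of 10 epithelial markers (Krt18 and Cdx2) higher, and called 0 of 6 endothelial markers, of which 1 had an unadjusted p under 0.05.

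Per exonic kilobase, a scale on which genes can be compared, the 10 genes spanned a wide range. In untreated WT colons Cd14 and Tlr1 led, with mean levels of 31.4 ± 0.68 and 30.7 ± 1.26 CPM per kilobase (SD, n = 2), and their libraries overlapped. Myd88 followed at 17.2 CPM per kilobase, then Tlr3 at 13.7, Tlr4 at 8.23 and Tlr2 at 5.95 CPM per kilobase, and between these neighbours the libraries did not overlap. Tlr7 (1.41 CPM per kilobase) and Tlr9 (0.719 CPM per kilobase) overlapped each other, Tlr5 lay lower at 0.329 CPM per kilobase, and Trem1 came last at 0.0380 CPM per kilobase. In the DSS-treated KO colons Cd14 stood alone at the top with 75.2 to 124 CPM per kilobase, whereas Tlr1 with 24.5 to 29.2 and Myd88 with 18.5 to 24.8 CPM per kilobase overlapped. At the low end of that group the order had turned: Trem1 had 0.484 to 3.03 CPM per kilobase and Tlr5 had 0.0439 to 0.227 CPM per kilobase.

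**Figure D1:**
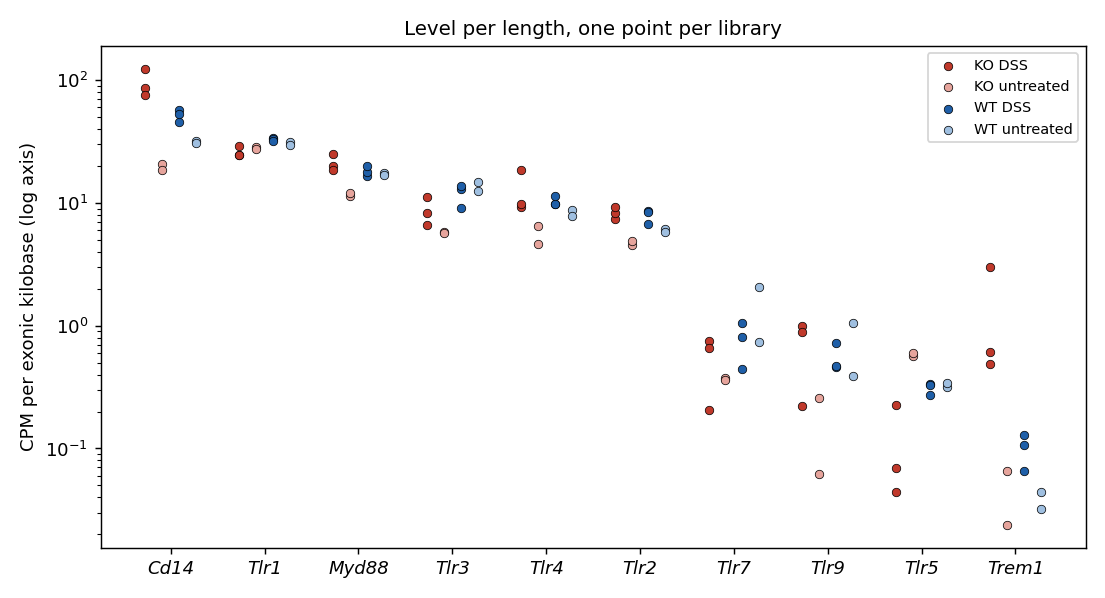
Level per length of the 10 genes, as CPM per exonic kilobase on a log axis, with 1 point per library (KO DSS and WT DSS n = 3, KO untreated and WT untreated n = 2) and genes ordered by their mean over the WT libraries. Cd14 in KO DSS colons, at 75.2 to 124 CPM per kilobase, lies above every other gene, and Trem1 spans the widest range between groups.

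The question the study put to these RNAs was how DSS-treated KO colons differ from DSS-treated WT colons. In that comparison 2 of the 10 genes were higher in KO colons (Trem1 and Cd14), 1 was lower (Tlr1) and 7 did not pass the test. A gene was called when its adjusted p from the quasi-likelihood test of edgeR (Benjamini-Hochberg, 20472 genes) was under 0.05. Over all genes 14.9% were called higher and 14.9% lower in the same comparison, so the members' count does not stand apart from the table as a whole. Their median log2 fold change was 0.14, against -0.040 over all tested genes.

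Trem1 (gene ID 58217, chromosome 17, 48232713 to 48246927 in GRCm38.p6) differed most. It was read at 9.09, 1.82 and 1.45 CPM in the KO DSS libraries, from 626, 109 and 69 counts. The WT DSS libraries had 0.317, 0.195 and 0.385 CPM, from 20, 13 and 28 counts. The groups did not overlap, and KO library 1 stood far above the other two KO libraries. Trem1 was 13.7-fold higher in KO DSS colons (log2 fold change 3.78, SE 0.73, 95% interval 2.13 to 5.42, edgeR adjusted p = 0.00575, n = 3 against 3). Without KO DSS library 1 the log2 fold change was 2.44 (edgeR adjusted p = 0.00606).

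Markers of neutrophils, a cell type that carries the receptor, were compared beside Trem1. Of 10 neutrophil markers edgeR called 7 higher and 0 lower in KO DSS colons, and DESeq2 called 5 higher and 0 lower. Their summed level was 908, 361 and 490 CPM there, against 329, 226 and 293 CPM in WT DSS colons. In the untreated KO libraries the sum was 351 and 317 CPM, while Trem1 had 0.198 and 0.0715 CPM. KO DSS library 4 had a higher sum than KO DSS library 2 (490 and 361 CPM) but less Trem1 (1.45 and 1.82 CPM). Ly6g, a neutrophil surface gene that was not called between the DSS-treated groups, made up most of the sum in WT DSS and untreated KO colons. Ly6g had 284 to 388 CPM in KO DSS colons, 217 to 321 CPM in WT DSS colons and 316 and 350 CPM in the untreated KO libraries. In the untreated KO libraries S100a9 reached no more than 0.0572 CPM. There 5 of the 10 markers (S100a8, Cxcr2, Retnlg, Mmp8 and Ngp) had no count. S100a9, a calcium-binding protein of neutrophil granules and cytoplasm, had 31.0 to 220 CPM in KO DSS colons and 0.391 to 1.32 CPM in WT DSS colons. Ngp, a neutrophil granule gene, had 0.189 to 29.7 CPM in KO DSS colons and no count in any other group. It passed the low-count filter through the KO DSS libraries alone, so higher was the only call it could get. Retnlg, also called higher, had no count in untreated colons and at most 0.143 CPM in WT DSS colons. The part of neutrophil number in the Trem1 value was not tested. In whole tissue more cells of a type and more RNA per cell cannot be told apart.

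Cd14 (gene ID 12475), whose product hands lipopolysaccharide to the TLR4 complex, had the highest level per exonic kilobase of the members in both DSS-treated groups. Its level was 151, 130 and 214 CPM in the KO DSS libraries and 98.6, 79.3 and 91.5 CPM in the WT DSS libraries, with no overlap. The difference was 1.84-fold (log2 fold change 0.88, SE 0.17, 95% interval 0.50 to 1.26, edgeR adjusted p = 0.00578), and it lay between 0.65 and 1.03 when any single library was left out. Of 12 macrophage and monocyte markers edgeR called 0 in this comparison and DESeq2 called 0 higher and 3 lower, with 4 at an unadjusted p under 0.05 in edgeR. Their summed level was 213 to 385 CPM in KO DSS colons and 293 to 601 CPM in WT DSS colons. KO library 4 had the highest Cd14 level (214 CPM) and the lowest macrophage marker sum of its group (213 CPM). The part of macrophages or of any other cell type in the Cd14 value was not tested.

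Tlr1 (gene ID 21897, chromosome 5, 64924680 to 64933600), the partner of TLR2 for triacylated lipoproteins, was the member called lower. It had 82.6, 82.0 and 97.8 CPM in the KO DSS libraries and 112, 111 and 107 CPM in the WT DSS libraries. The difference was small (log2 fold change -0.33, SE 0.092, edgeR adjusted p = 0.0247). The call was lost with the DSS-treated groups fitted alone (edgeR adjusted p = 0.0627), without KO DSS library 2 (0.0704) and without WT DSS library 2, 3 or 4 (0.0663, 0.0775 and 0.0510). Of the 50-base stretches of Tlr1, 13.6% also occur in its neighbour Tlr6, so reads from these could have been assigned to either gene. Tlr6 itself had a log2 fold change of -0.29 and was not called (edgeR adjusted p = 0.186).

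Tlr5 (gene ID 53791, chromosome 1, 182954752 to 182976044), the flagellin receptor, was low in all groups. The KO DSS libraries had 1.09, 0.335 and 0.210 CPM, from 75, 20 and 10 counts, and the WT DSS libraries had 1.62, 1.56 and 1.30 CPM, from 102, 104 and 95 counts. All KO DSS libraries were below all WT DSS libraries, but the log2 fold change of -1.42 (SE 0.49) narrowly missed the threshold (edgeR adjusted p = 0.0521). DESeq2 called it (adjusted p = 0.0173), and so did edgeR without KO DSS library 1, where the log2 fold change was -2.44 (adjusted p = 0.00169). Smooth muscle markers were lower in the same colons, 8 of 8 of them called, and their part in the Tlr5 value was not tested.

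The remaining members did not pass the threshold. Tlr3 had 34.6, 43.0 and 58.2 CPM in the KO DSS libraries and 47.6, 68.0 and 71.7 CPM in the WT DSS libraries (log2 fold change -0.46, SE 0.20, 95% interval -0.91 to -0.016, edgeR adjusted p = 0.106). It passed the threshold without KO DSS library 4 (adjusted p = 0.0250) or without WT DSS library 2 (adjusted p = 0.0428), in edgeR's test. Tlr4 had 51.9, 54.7 and 104 CPM in KO DSS colons and 54.7, 54.3 and 62.7 CPM in WT DSS colons, so that KO library 4 alone set the mean apart, and the log2 fold change of 0.29 (95% interval -0.26 to 0.84) became -0.10 without it. For Tlr2 the 95% interval of the log2 fold change was -0.22 to 0.35, for Myd88 -0.051 to 0.48, for Tlr7 -1.67 to 0.66 and for Tlr9 -1.03 to 1.73, and the libraries of both groups overlapped for each. At an unadjusted p under 0.01 with a fold over 3, the thresholds of the study's methods, Trem1 was the sole member to pass, while 4.35% of all genes did.

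**Figure D2:**
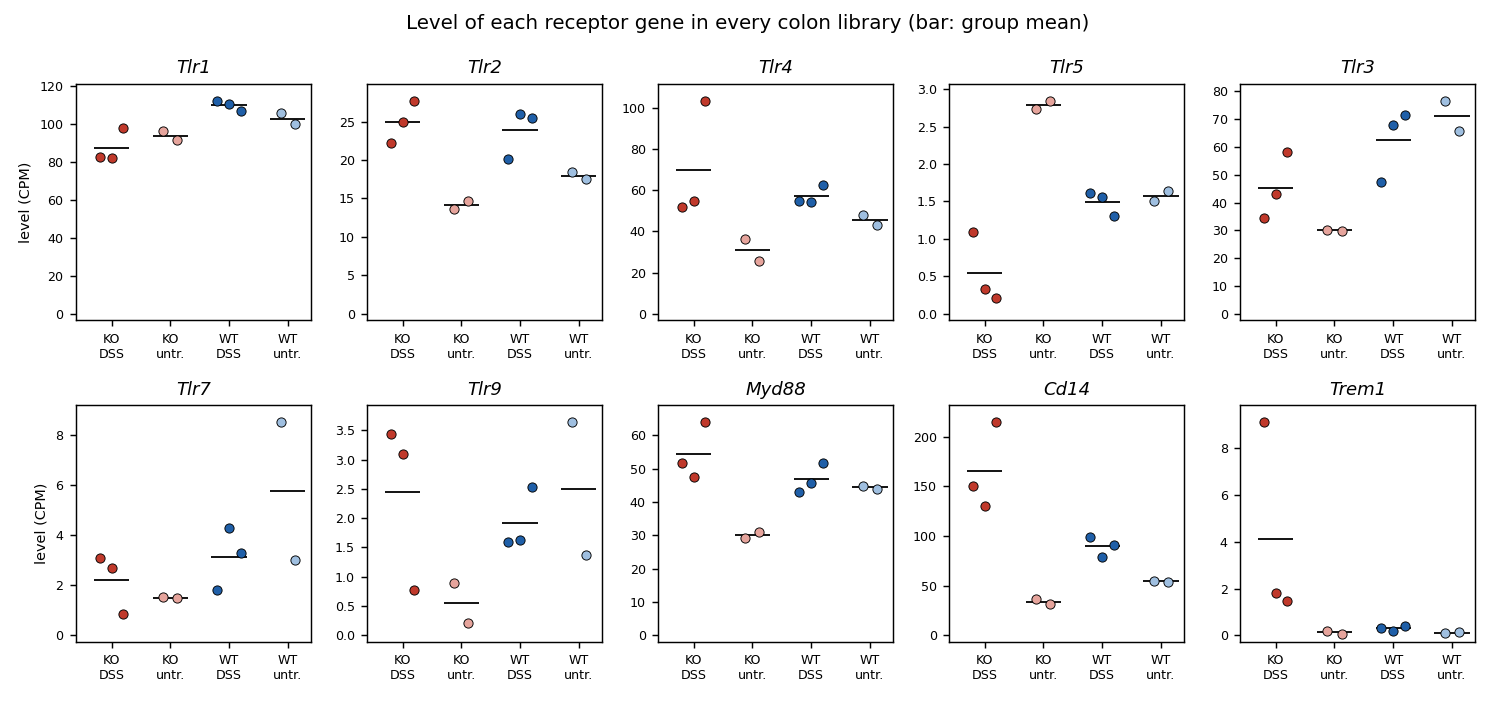
Level of each gene in CPM in every library, with points for libraries and a bar for the group mean (KO DSS n = 3, KO untreated n = 2, WT DSS n = 3, WT untreated n = 2), each panel on its own linear axis. Trem1 and Cd14 are higher in all KO DSS libraries than in any other library, and untreated KO libraries hold the lowest Cd14 values (32.0 and 36.2 CPM).

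DNA upstream of the start site is shown for Trem1, the member with the largest rise, for Tlr5, the one with the largest fall, and for the adaptor Myd88. For Myd88 edgeR called the response to DSS different between genotypes, a call that was lost when some single libraries were left out. RefSeq (GRCm38.p6) gave a promoter entry for 7 of the 10 genes. The 250 bases before each start site were searched on both strands for the NF-κB consensus, for GAAANNGAA (the core of interferon-response elements) and for TGANTCA (the site of AP-1), which stand in 3.75%, 7.16% and 6.87% of 27018 promoters. Tlr2 and Tlr3 held an NF-κB consensus, which lay 173 to 163 bases before the start in Tlr2, where 3 overlapping matches were counted, and 211 to 202 bases before it in Tlr3. In both genes annotated exon sequence was met farther upstream than these matches or within them, so they may lie in exons. Myd88 held GAAANNGAA 40 to 32 bases before the start, Tlr9 held TGANTCA 58 to 52 bases before it, and the other 3 held none of these letters. The stretches below run from 5′ to 3′ on the strand of the gene and end before the first annotated exon, and capitals mark the match. They are chr17:48232489-48232712 (plus strand) for Trem1, chr1:182954538-182954751 (plus strand) for Tlr5 and chr9:119340042-119340268 (minus strand) for Myd88.
Trem1: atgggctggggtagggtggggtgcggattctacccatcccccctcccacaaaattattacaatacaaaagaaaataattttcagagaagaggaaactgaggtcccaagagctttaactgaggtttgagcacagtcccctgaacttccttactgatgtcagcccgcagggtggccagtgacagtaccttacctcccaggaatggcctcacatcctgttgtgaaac
Tlr5: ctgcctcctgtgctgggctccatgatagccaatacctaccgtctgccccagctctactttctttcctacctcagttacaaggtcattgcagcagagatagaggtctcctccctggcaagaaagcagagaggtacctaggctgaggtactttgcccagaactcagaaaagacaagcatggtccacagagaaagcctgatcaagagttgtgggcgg
Myd88: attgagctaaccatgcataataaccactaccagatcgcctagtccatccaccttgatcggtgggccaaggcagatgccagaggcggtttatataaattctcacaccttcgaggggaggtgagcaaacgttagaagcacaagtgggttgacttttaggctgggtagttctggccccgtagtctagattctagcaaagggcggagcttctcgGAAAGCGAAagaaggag

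In KO mice most of these genes differed between DSS-treated and untreated colons. Against untreated KO colons, DSS-treated KO colons were higher in 6 members (Trem1, Cd14, Tlr9, Tlr4, Myd88 and Tlr2) and lower in 1 (Tlr5), and 3 did not pass. Over all genes 23.1% were called higher and 22.3% lower. Of the cell type markers edgeR called 8 of 8 for smooth muscle lower. It called 7 of 10 for neutrophils and 4 of 12 for macrophages and monocytes higher, and 0 of either lower. Their part in the members' values was not tested. The members' median log2 fold change was 0.84, against 0.023 over all tested genes. Trem1, Cd14 and Tlr5 also passed an unadjusted p under 0.01 with a fold over 3, as did 13.9% of all genes.

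Both amplifiers rose. Cd14 had 151, 130 and 214 CPM in the KO DSS libraries and 36.2 and 32.0 CPM in the untreated KO libraries, a 4.84-fold difference (log2 fold change 2.28, SE 0.21, edgeR adjusted p = 8.34e-05). Trem1, with 0.198 and 0.0715 CPM from 10 and 5 counts in the untreated KO libraries, was 31.5-fold higher in KO DSS colons (log2 fold change 4.98, SE 0.97, edgeR adjusted p = 0.00279). Without KO DSS library 1 the log2 fold change of Trem1 was 3.60. Both genes were higher in each treated library than in any untreated one.

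Among the surface receptors, Tlr2 and Tlr4 rose and Tlr5 fell. Tlr2 had 22.2, 24.9 and 27.7 CPM in KO DSS colons and 13.6 and 14.7 CPM in untreated KO colons (log2 fold change 0.82, SE 0.15, edgeR adjusted p = 0.00189). Tlr4, at 36.1 and 25.8 CPM in untreated KO colons, had a log2 fold change of 1.18 (SE 0.29, edgeR adjusted p = 0.00848). The Tlr4 call was lost without untreated KO library 3 (edgeR adjusted p = 0.0827), and without KO DSS library 4 the log2 fold change was 0.78. Tlr5 fell to a mean of 0.545 CPM in KO DSS colons, against 2.79 CPM in untreated KO colons (log2 fold change -2.32, SE 0.53, edgeR adjusted p = 0.00606), and the value lay between -3.37 without KO DSS library 1 and -1.96 without KO DSS library 4, with the call kept. Smooth muscle markers fell in the same comparison, 8 of 8. Tlr1 had a log2 fold change of -0.10 (95% interval -0.33 to 0.13) and was not called.

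Myd88 (gene ID 17874, chromosome 9, 119335934 to 119340018) had 51.9, 47.6 and 63.9 CPM in KO DSS colons and 29.2 and 31.0 CPM in untreated KO colons (log2 fold change 0.85, SE 0.14, edgeR adjusted p = 0.00105). Of the exonic bases of Myd88, 11.3% overlap Acaa1a on the opposite strand, and reads there could belong to either gene if counting did not use strand. The endosomal receptors varied more between libraries. Tlr9, the receptor for unmethylated CpG DNA, had 3.44, 3.10 and 0.778 CPM in KO DSS colons and 0.890 and 0.215 CPM in untreated KO colons, and the groups overlapped. Its log2 fold change of 2.18 (SE 0.78, edgeR adjusted p = 0.0437) lost the call with the KO groups fitted alone (edgeR adjusted p = 0.0906), without KO DSS library 1 or 2, without untreated KO library 3 or without any one of the WT DSS libraries (edgeR adjusted p 0.0559 to 0.241), and was larger, with the call kept, without untreated KO library 2 (edgeR adjusted p = 0.0322). Tlr3 had a log2 fold change of 0.59 (SE 0.23, edgeR adjusted p = 0.0578), which was called without KO DSS library 1 (adjusted p = 0.0245) or WT DSS library 2 (0.0372) and by DESeq2 (0.0403), and Tlr7 one of 0.55 (95% interval -0.79 to 1.89).

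In WT mice the same DSS course moved none of the 10 members past the threshold. EdgeR called 0 higher and 0 lower, as DESeq2 did, and 2 (Tlr2 and Cd14) had an unadjusted p under 0.05 in edgeR. Few genes of the whole table were called, 0.0195% higher and 0.00488% lower, and 0.420% passed an unadjusted p under 0.01 with a fold over 3. Cd14 had 98.6, 79.3 and 91.5 CPM in WT DSS colons and 55.2 and 53.6 CPM in untreated WT colons (log2 fold change 0.72, SE 0.19, edgeR adjusted p = 0.458). Tlr2 had 20.1, 25.9 and 25.5 CPM in WT DSS colons and 18.4 and 17.5 CPM in untreated WT colons (log2 fold change 0.41, SE 0.14, edgeR adjusted p = 0.599). Every treated library lay above both untreated ones for 5 of the 10 members (Tlr1, Tlr2, Tlr4, Cd14 and Trem1), compared with 15.0% of all tested genes.

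Whether the response to DSS differed between genotypes was tested as an interaction, the DSS response of KO mice minus that of WT mice on the log2 scale. EdgeR called it higher for 2 members, Cd14 and Myd88, and lower for 0, with 13.8% of all genes called higher and 13.0% lower. DESeq2 called 4 members higher and 1, Tlr5, lower, with 3397 genes higher and 3204 lower among the 20472 tested. For Cd14 the responses differed by 1.55 (SE 0.27, edgeR adjusted p = 0.00428), and the call stayed when any single library was left out. For Myd88 they differed by 0.78 (SE 0.19, edgeR adjusted p = 0.0158), a log2 fold change of 0.85 in KO and of 0.077 in WT mice. The Myd88 call was lost without untreated WT library 2 or 3 or untreated KO library 2 (edgeR adjusted p 0.0531 to 0.0637). Tlr5 (-2.25, edgeR adjusted p = 0.0517), Trem1 (3.60, 0.0732), Tlr9 (2.56, 0.0899) and Tlr3 (0.78, 0.0952) did not pass, and Tlr5 did without KO DSS library 1 (-3.29, 0.00177) or 4 (-1.88, 0.0487). Without KO DSS library 4 edgeR also called Trem1 (adjusted p = 0.0380) and Tlr9 (2.98, 0.0311), and without KO DSS library 1 it called Tlr3 (0.91, 0.0427). For the interaction 11.2% of all genes passed an unadjusted p under 0.01 with a fold over 3. Of the smooth muscle markers edgeR called 8 of 8 lower for the interaction, and their part in the members' values was not tested.

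**Figure D3:**
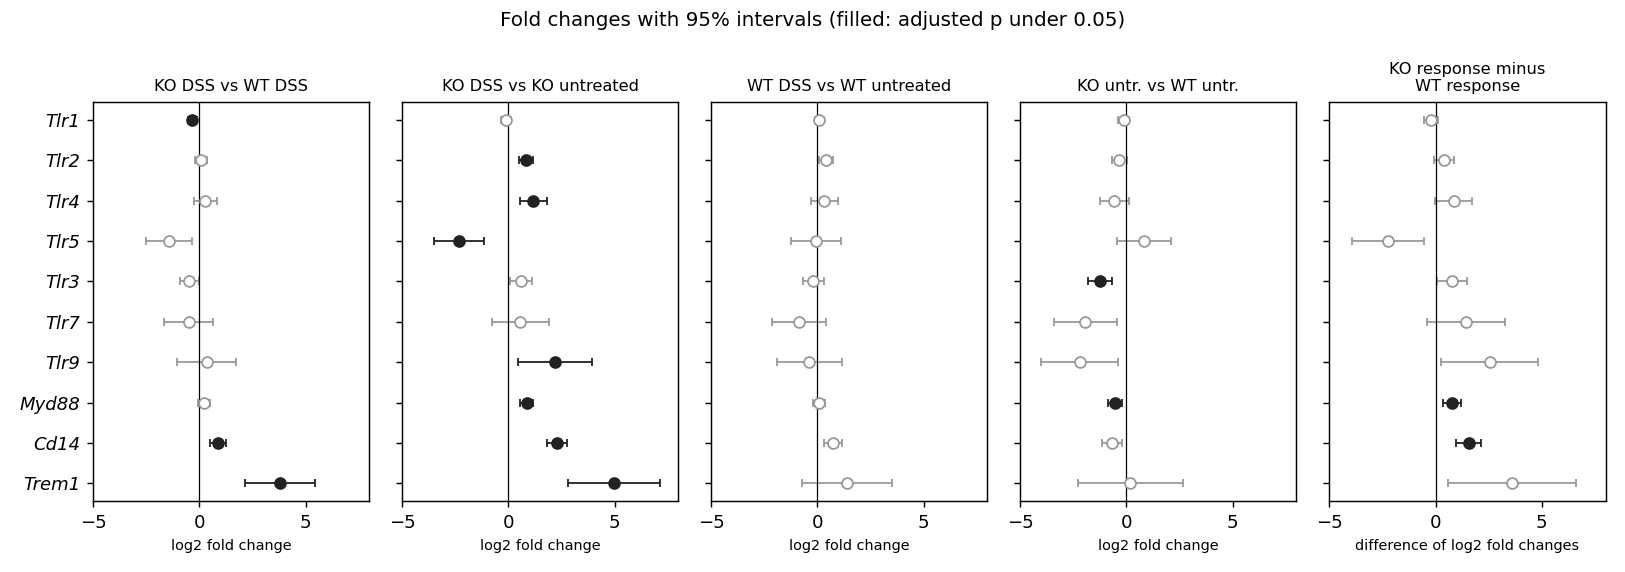
Log2 fold change of each gene with its 95% interval in the 4 comparisons, and the difference between the KO and WT responses to DSS in the last panel. Filled points passed an edgeR adjusted p of 0.05: 6 higher and 1 lower in DSS-treated against untreated KO colons, 0 in DSS-treated against untreated WT colons, and Myd88 and Cd14 in the last panel.

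Without DSS the KO colons were lower in 2 members, Tlr3 and Myd88, and higher in 0 (DESeq2 called 5 lower and 0 higher). Over all genes edgeR called 5.97% lower and 3.87% higher, and DESeq2 called 1910 genes lower and 1603 higher among the 20472 tested. The members' median log2 fold change was -0.56, against 0.0056 over all tested genes. For 8 of the 10 members both untreated KO libraries lay below both untreated WT libraries, compared with 32.1% of all tested genes. An unadjusted p under 0.01 with a fold over 3 was met by 0 of the members and by 4.77% of all genes.

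Tlr3 (gene ID 142980, chromosome 8, 45395665 to 45411075), the receptor for double-stranded RNA, had 30.2 and 29.9 CPM in untreated KO colons and 76.7 and 65.7 CPM in untreated WT colons (log2 fold change -1.25, SE 0.25, edgeR adjusted p = 0.0160). An antisense gene, Gm45542, covers 7.32% of the exonic bases of Tlr3. Myd88 had 29.2 and 31.0 CPM in untreated KO colons and 45.0 and 43.9 CPM in untreated WT colons (log2 fold change -0.56, SE 0.15, edgeR adjusted p = 0.0422). With 2 libraries per group both calls rested on every one of these libraries: leaving out any of the 4 gave adjusted p-values of 0.0528 to 0.104 for Tlr3 and of 0.152 to 0.199 for Myd88 in edgeR's test, and the Myd88 call was also lost without WT DSS library 2 or 3 (0.0503 and 0.0631).

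Cd14 was lower as well in each untreated KO library, with 36.2 and 32.0 CPM against 55.2 and 53.6 CPM in untreated WT colons (log2 fold change -0.67, SE 0.21), but the test was not passed (edgeR adjusted p = 0.0720). Tlr7 and Tlr9 had log2 fold changes of -1.93 (SE 0.66, edgeR adjusted p = 0.0930) and -2.21 (SE 0.82, edgeR adjusted p = 0.119), which depended on single libraries. For Tlr7 the value was -1.01 without untreated WT library 2 and -2.49 without untreated WT library 3, and for Tlr9 it was -1.33 without untreated WT library 2 and -3.53 without untreated KO library 2. DESeq2 called Cd14, Tlr7 and Tlr9 lower too, 5 members in all. Without KO DSS library 4 edgeR also called Cd14 (adjusted p = 0.0140), Tlr7 (0.0411) and Tlr4 (0.0485) lower.

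Macrophage and monocyte markers were lower in the same untreated KO colons. Of 12 markers 8 were called lower, and their summed level was 185 and 205 CPM in KO and 705 and 551 CPM in WT colons. Of the T cell markers 6 of 6 were lower and of the dendritic cell markers 4 of 6. Their part in the values of Tlr3, Tlr7 and Cd14 was not tested. Tlr7, the receptor for single-stranded RNA, had 1.54 and 1.47 CPM in untreated KO colons and 8.49 and 3.02 CPM in untreated WT colons. The WT library with more Tlr7 had the larger macrophage marker sum (705 CPM), whereas the KO library with more Tlr7 had the smaller one (185 CPM).

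Tlr9 was set beside markers of B cells, in which the gene is expressed. The 8 B cell markers summed to 230, 227 and 65.4 CPM in the KO DSS libraries, 105 and 17.0 CPM in the untreated KO libraries, 81.8, 30.5 and 119 CPM in the WT DSS libraries and 230 and 36.2 CPM in the untreated WT libraries. Tlr9 itself had 3.44, 3.10 and 0.778 CPM in the KO DSS libraries, 0.890 and 0.215 CPM in the untreated KO libraries, 1.60, 1.62 and 2.53 CPM in the WT DSS libraries and 3.63 and 1.36 CPM in the untreated WT libraries. Within each group the library with the largest B cell marker sum also had the most Tlr9. The other libraries did not keep this order: WT DSS libraries 2 and 3 had sums of 81.8 and 30.5 CPM but 1.60 and 1.62 CPM of Tlr9. Between groups, untreated KO library 2 (sum 105 CPM) had less Tlr9 than WT DSS library 3 (sum 30.5 CPM). None of the 8 B cell markers was called in any of the 4 comparisons by edgeR or DESeq2, nor had any an unadjusted p under 0.05 in edgeR, and their part in the Tlr9 differences was not tested.

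**Figure D4:**
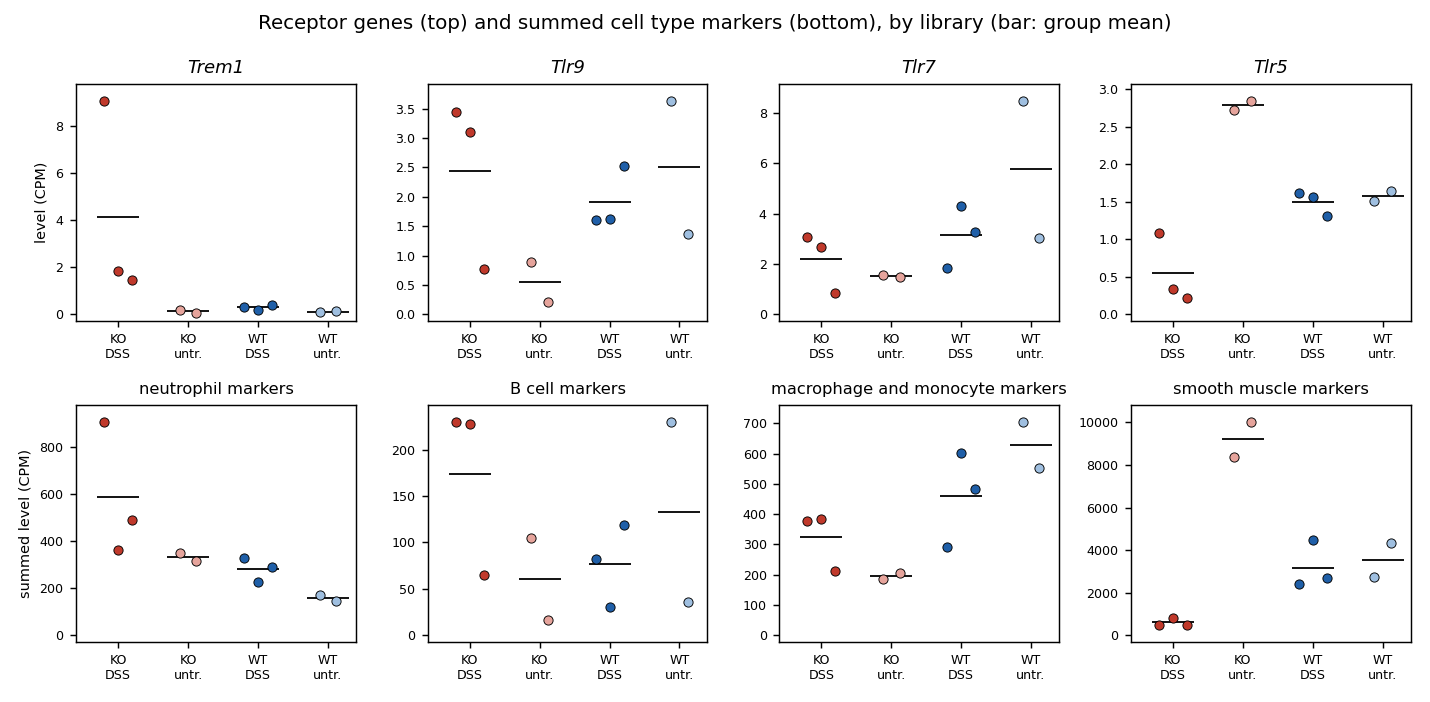
Levels in CPM of Trem1, Tlr9, Tlr7 and Tlr5 (top) and the summed CPM of neutrophil, B cell, macrophage and monocyte, and smooth muscle markers (bottom) in every library, with bars for group means (KO DSS and WT DSS n = 3, KO untreated and WT untreated n = 2). KO DSS library 1 has the highest Trem1 (9.09 CPM) and the highest neutrophil sum (908 CPM), and smooth muscle sums are highest in untreated KO colons, as is Tlr5. In untreated KO colons Ly6g alone (316 and 350 CPM) makes up most of the neutrophil sum.

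The genes with the most similar pattern over the 10 libraries were found among 12436 expressed genes by the root mean square difference of centred log2 CPM, a description over libraries that share groups and depth. For Trem1 they were Lcn2, an iron-binding antimicrobial protein, Cwh43 and C2cd4b, at 0.69 to 0.81 log2 units, against an SD of 1.95 for Trem1 itself, so none followed it closely. Cd14 was closest to Cd38, Tc2n and Nfkbia, the NF-κB inhibitor (0.14 to 0.23 log2 units, SD of Cd14 0.85). Tlr3 was closest to Trafd1 and Parp12, both known as interferon-induced genes, and Gpr157 (0.12 to 0.16, SD 0.50). Tlr7 was closest to Tm6sf1, Sept1 and Lyz2, the lysozyme gene of macrophages and neutrophils (0.26 to 0.30, SD 0.87). Tlr9 was closest to Pou2f2, Ikzf3 and Traf3ip3, genes of lymphocytes (0.24 to 0.27, SD 1.14). Myd88 lay within 0.070 to 0.083 log2 units of Pnp, Lratd2 and Brwd3 (SD 0.32), and Tlr4 within 0.13 to 0.16 of Ankrd22, Itgb6 and Sbno2 (SD 0.49). Tlr5 was closest to Fmo2, Tgfb3 and Elavl4 (0.33 to 0.35, SD 1.10), Tlr1 to Bod1l, Fam160b1 and Msh3 (0.054 to 0.055, SD 0.15) and Tlr2 to Ap5b1, Limd1 and Desi1 (0.12 to 0.13, SD 0.34).

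The rest of the pathway was followed in 7 lists of 60 genes, 59 of them tested. In DSS-treated KO against DSS-treated WT colons 7 were higher and 3 lower, where 14.9% of all genes were called in each direction. Of the 6 genes listed as other Toll-like receptors, with the related Cd180 counted among them, 0 were higher and 1 lower (median log2 fold change -0.35). Tlr11, which in mice senses profilin of Toxoplasma, had a mean of 0.291 CPM in KO DSS colons and 1.21 CPM in WT DSS colons (log2 fold change -2.08, edgeR adjusted p = 0.0137). Without WT DSS library 3 this call was lost (edgeR adjusted p = 0.0550). Tlr12 had a log2 fold change of -0.69 (edgeR adjusted p = 0.206), and passed without KO DSS library 2 (-1.30, adjusted p = 0.0160).

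Of 8 co-receptor and trafficking genes 1 was higher (median log2 fold change 0.10). It was Hsp90b1, the endoplasmic reticulum chaperone gp96 that folds most Toll-like receptors, with a mean of 1131 CPM in KO DSS colons and 618 CPM in WT DSS colons (log2 fold change 0.87, edgeR adjusted p = 0.00319). Ly96, the MD-2 subunit of the TLR4 complex (log2 fold change 0.22, edgeR adjusted p = 0.379), and Cd36, a scavenger receptor that assists TLR2 (-0.76, 0.160), were not called. Of the 4 other adaptors 0 were called by edgeR or DESeq2, and 1 had an unadjusted p under 0.05 in edgeR (median -0.32). The values were -0.75 for Sarm1 (edgeR adjusted p = 0.0618), -0.26 for Tirap (0.185) and -0.38 for Ticam2 (0.298), and Sarm1 passed without KO DSS library 2 (-0.99, 0.0338).

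Below the adaptors 1 of 15 genes was lower and 0 higher (median log2 fold change 0.11). Irf7, the interferon regulatory factor downstream of TLR7 and TLR9, had a mean of 83.0 CPM in KO DSS colons and 290 CPM in WT DSS colons (log2 fold change -1.81, edgeR adjusted p = 0.0121). Traf6 (0.19, edgeR adjusted p = 0.169) and Irak1 (-0.20, 0.194) were not called, and Irak1 passed without KO DSS library 1 (-0.32, 0.0257). Of 9 inhibitors 2 were higher (median 0.0035). Zc3h12a, a ribonuclease that degrades inflammatory transcripts, had a mean of 139 CPM in KO DSS colons and 53.0 CPM in WT DSS colons (log2 fold change 1.39, edgeR adjusted p = 0.00177). Socs1, a suppressor of cytokine signalling, was 4.80-fold higher (log2 fold change 2.26, edgeR adjusted p = 0.0171), and lost the call without WT DSS library 2 or 3 (adjusted p = 0.0539 and 0.0668). Tnfaip3, the ubiquitin-editing enzyme A20, had a log2 fold change of 0.84 (edgeR adjusted p = 0.0590), and passed without KO DSS library 1 (1.09, 0.0153) and in DESeq2 (0.85, 0.0168).

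Of the TREM receptors, adaptors and ligand 9 of 10 were tested, 2 were higher and 0 lower (median log2 fold change -0.041). Pglyrp1, a peptidoglycan recognition protein that can act as a TREM1 ligand, had a mean of 867 CPM in KO DSS colons and 436 CPM in WT DSS colons (log2 fold change 0.99, edgeR adjusted p = 0.00375). Syk, a kinase below DAP12, was called at 0.52 (edgeR adjusted p = 0.0424) and lost without KO DSS library 2 or 4, WT DSS library 3 or 4 or either untreated WT library (adjusted p 0.0577 to 0.139). Hcst, the adaptor DAP10, was not called (-0.52, edgeR adjusted p = 0.190). Of 8 other innate receptors 2 were higher and 1 lower (median 0.77). Clec4e, the receptor Mincle, was 6.76-fold higher (log2 fold change 2.76, edgeR adjusted p = 0.0128) and Clec4d, its partner, 4.34-fold (2.12, 0.0230). The Clec4d call was lost without KO DSS library 1 (1.20, edgeR adjusted p = 0.0760) or WT DSS library 2 or 4 (0.0655 and 0.0590). Nod1, a cytosolic peptidoglycan receptor, was lower at -0.41 (edgeR adjusted p = 0.0322) and lost the call in all single-library leave-outs but that of KO DSS library 4 and that of WT DSS library 2.

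In untreated KO against untreated WT colons 16 of the 59 pathway genes were lower and 1 was higher, where 5.97% of all genes were called lower and 3.87% higher. In the same colons 8 of 12 macrophage and monocyte, 4 of 6 dendritic cell and 6 of 6 T cell markers were called lower. B cell markers had 0 of 8 called, and 4 of 8 smooth muscle markers were higher. The part of these cell types in the pathway values was not tested. On the list of other Toll-like receptors, with Cd180, 4 of 6 genes were lower (median log2 fold change -2.35). Tlr13, which in mice senses bacterial ribosomal RNA, had means of 0.922 CPM in KO and 4.92 CPM in WT colons (log2 fold change -2.41, edgeR adjusted p = 0.00887), and Tlr12 had 1.14 and 6.26 CPM (-2.45, 0.0173). Of the co-receptor and trafficking genes 3 of 8 were lower (median -0.59), among them Ly86, which encodes MD-1 (log2 fold change -2.14, edgeR adjusted p = 0.00814), and Unc93b1, which carries the endosomal receptors to their compartment (-0.97, 0.0140). Sarm1, an adaptor-like enzyme of neurons that restrains signalling, was the gene called higher (1.75, edgeR adjusted p = 0.0132), and Ticam2, the TLR4 adaptor TRAM, was not called (-1.01, 0.0848).

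Below the adaptors 2 of 15 were lower (median log2 fold change -0.25): Irf7 with means of 99.6 CPM in untreated KO and 470.1 CPM in untreated WT colons (-2.24, edgeR adjusted p = 0.0281), and Pik3ap1, an adaptor for phosphoinositide 3-kinase (-2.05, 0.0292). Of 9 inhibitors 1 was lower (median -0.25), Trafd1 (-1.33, edgeR adjusted p = 0.0219), and Socs1 missed the threshold (-2.50, 0.0600). Of the 9 tested TREM genes 1 was lower (median -1.13), Tyrobp, which encodes DAP12 (-2.09, edgeR adjusted p = 0.0101), and Card9, an adaptor below C-type lectins, missed it (-2.02, 0.0549). Of the 8 other innate receptors 5 were lower and 0 higher (median -2.43), among them Nod2, the muramyl dipeptide sensor (-1.41, edgeR adjusted p = 0.00887), and Clec4n, the receptor Dectin-2 (-2.19, 0.00887). DESeq2 called Ticam2 (adjusted p = 0.0424), Socs1 (0.0219) and Card9 (0.00718) lower. With 2 libraries per group, each pathway gene named here as called lost its call when at least 1 of the 4 untreated libraries was left out.

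**Figure D5:**
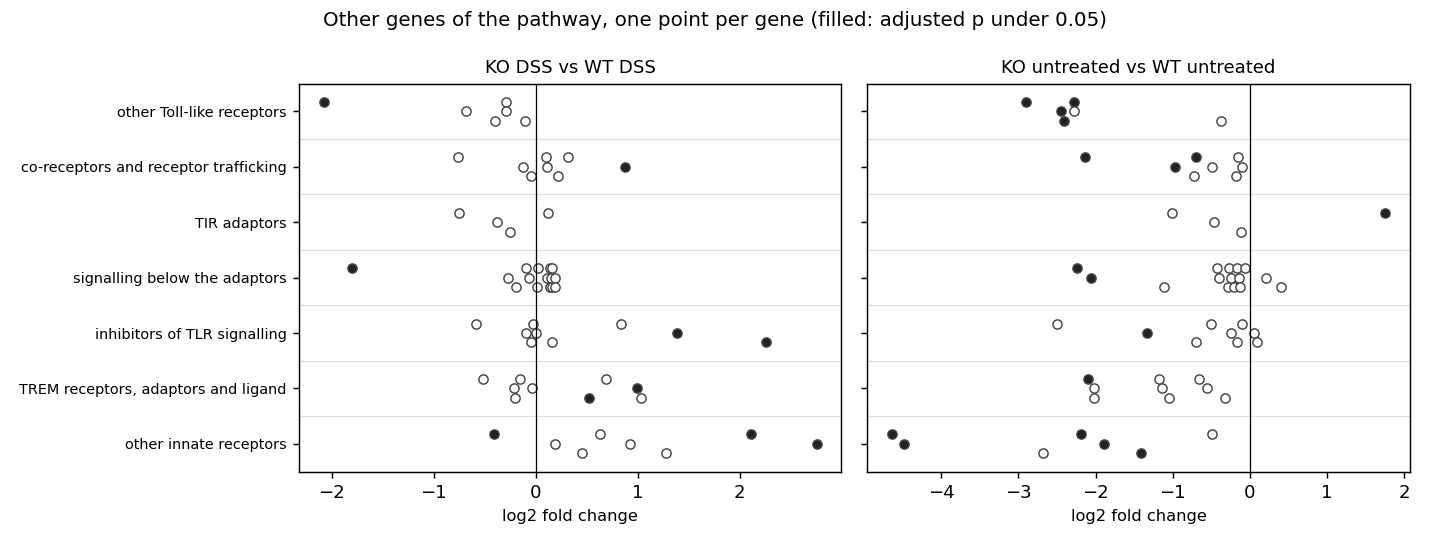
Log2 fold change of the other pathway genes, 1 point per gene in 7 lists, for KO DSS against WT DSS colons (left) and untreated KO against untreated WT colons (right), on separate axes. Filled points passed an edgeR adjusted p of 0.05: 7 higher and 3 lower on the left, 1 higher and 16 lower on the right, where Fpr1, without a count in untreated KO colons, is not drawn.

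With DSS in KO mice the same lists had 31 genes higher and 3 lower than in untreated KO colons (23.1% and 22.3% of all genes), and in WT mice 0 were called, with 7 at an unadjusted p under 0.05 in edgeR and 1 called by DESeq2. The difference between the responses was called higher in KO for 19 and lower for 1 of the 59 (13.8% and 13.0% of all genes). Other innate receptors had the most calls for their number, 7 of 8 higher with DSS in KO mice and 7 of 8 higher in the difference. On the list of other Toll-like receptors, with Cd180, 2 of 6 genes were higher in each.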

How the data were processed

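Colon RNA was sequenced from a stranded mRNA kit in 10 libraries, and the authors deposited raw read counts for 29320 genes (RefSeq gene models on mm10), which were used here. StringTie 2.1.3b, Bowtie2 2.3.4.1, HISAT2 2.1.0 and Trimmomatic 0.38 appear in the processing notes of the submitters. For the use of strand in counting and the handling of multi-mapping reads, nothing is given in the sources used here. A further 30 per-sample columns of FPKM, TPM and normalized values, the group means and the authors' own comparisons (fold changes and p-values) were not used. Column names show the group of each library but not which labelled animal it was, so libraries are called by the number in the column name. No row lacked a gene name. Totals were 49689389 to 72197887 counts per library, and counting error is therefore smallest for the genes with most counts and largest for Trem1, Tlr5 and Tlr9.

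Genes were kept with filterByExpr (20472 of 29320), scaled with TMM and fitted with edgeR 4.0.16 (R 4.3.3) as 4 group means over all 10 libraries, with 1 estimate of spread. Contrasts were tested with the quasi-likelihood F test (residual df 6, prior df 3.64), Benjamini-Hochberg adjustment ran over every gene tested, and SE is the absolute log2 fold change over the square root of F. CPM per exonic kilobase was computed from the counts and GENCODE vM21 exons, rather than from the deposited TPM, which had been the plan. Positions and promoters are from RefSeq GRCm38.p6. The script was tested on simulated data.

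Alternatives were RLE size factors, DESeq2 1.42.0, no filter, a fit of the compared groups alone, at least 10 counts in every library, the library number as a replicate block, each library left out in turn, and an unadjusted p under 0.01 with a fold over 3, the thresholds of the study's methods. Named are all 10 members and Dnajc10, of each pathway list the 3 genes with the smallest p in KO DSS against WT DSS colons and the 2 with the smallest p in untreated KO against untreated WT colons, cell type markers beside a member, and for each member the 3 genes nearest in centred log2 CPM (mean log2 CPM of at least 1, prior count 2, predicted genes left out). Tlr6, Acaa1a and Gm45542 are named because they share sequence or position with a member, and Cd180 to state what its list holds. The members, the pathway lists and the marker lists were chosen with earlier results of these data known.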

Additional observations from a re-analysis of the deposited data

Results flagged for a closer look

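The response to DSS differed between genotypes for 2 of the 10 genes by the interaction test. For Cd14 the log2 fold change with DSS was larger in KO than in WT mice by 1.55 (SE 0.27, edgeR adjusted p = 0.00428). Cd14 was higher in each of the 3 KO DSS libraries than in both untreated KO libraries, and likewise in each of the 3 WT DSS libraries than in both untreated WT libraries. For Myd88 the KO response exceeded the WT response by 0.78 (SE 0.19, edgeR adjusted p = 0.0158), a call that was lost when untreated WT library 2 or 3 or untreated KO library 2 was left out. In untreated colons Cd14 averaged 34.1 CPM in KO and 54.4 CPM in WT mice, and Myd88 averaged 30.1 CPM in KO and 44.4 CPM in WT mice. For the same interaction edgeR called 8 of 8 smooth muscle markers lower. It called 5 of 6 T cell, 3 of 12 macrophage and monocyte and 2 of 10 epithelial markers higher. Over all genes 13.8% were called higher and 13.0% lower. The part of tissue composition in the Cd14 and Myd88 values was not tested.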

How the results depend on the processing

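Of 784 values of member log2 fold changes under the alternatives, 717 kept their direction and their side of the threshold, 28 lost the call, 28 gained it and 11 changed sign. No sign change concerned a gene that was called. In KO DSS against WT DSS colons the members called higher (2) were 1 with at least 10 counts in every library, where Trem1 was not tested, and 1 at an unadjusted p under 0.01 with a fold over 3. The members called lower (1) were 2 with at least 10 counts in every library, 2 with DESeq2, 0 with only the groups compared, 0 at an unadjusted p under 0.01 with a fold over 3, and 0 to 2 with single libraries left out. In KO DSS against untreated KO colons the members called higher (6) were 2 at an unadjusted p under 0.01 with a fold over 3. In untreated KO against untreated WT colons the members called lower (2) were 4 with only the groups compared, 5 with DESeq2, 0 at an unadjusted p under 0.01 with a fold over 3, and 0 to 5 with single libraries left out. For the interaction the members called higher (2) were 4 with DESeq2, 0 at an unadjusted p under 0.01 with a fold over 3, and 1 to 4 with single libraries left out, and the members called lower (0) were 1 with at least 10 counts in every library, 1 with DESeq2, 1 with the replicate block and 0 to 1 with single libraries left out. Beyond fewer genes or samples in the fit, the cause of these shifts was not tested. Leaving out single libraries changed the sign of 6 log2 fold changes, none of them called. Their ranges in KO DSS against WT DSS colons were -0.045 to 0.14 for Tlr2 and -0.10 to 0.46 for Tlr4. In WT DSS against untreated WT colons they were -1.43 to 0.054 for Tlr7, -0.92 to 0.49 for Tlr9 and -0.019 to 0.14 for Myd88, and for Trem1 in untreated KO against untreated WT colons -0.66 to 0.78. Over all genes, KO DSS against WT DSS colons had 3048 higher and 3048 lower, and 1954 and 1668 with the replicate block. Untreated KO against untreated WT colons had 793 higher and 1223 lower, against 1603 and 1910 with DESeq2 and 1895 and 1924 with only the groups compared. WT DSS against untreated WT colons had 4 higher and 1 lower, and 114 and 59 with DESeq2.

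Same-numbered libraries of different groups did not deviate together (correlations -0.137 to 0.162), and nothing in the labels ties the numbers to a litter or day, so the replicate block is given here only. With the replicate block, Tlr1 in KO DSS against WT DSS colons (-0.31, edgeR adjusted p = 0.0903) and Tlr9 in KO DSS against untreated KO colons (1.64, 0.107) were not called, whereas Tlr5 was called in KO DSS against WT DSS colons (-2.39, edgeR adjusted p = 0.00887) and in the interaction (-3.21, 0.00676), as was Tlr3 in the interaction (0.91, 0.0366). Of the pathway genes named for KO DSS against WT DSS colons, Tlr11 (edgeR adjusted p = 0.0689), Irf7 (0.0761), Clec4e (0.0810), Clec4d (0.102) and Nod1 (0.0514) lost the call under it and Tnfaip3 (0.0218) gained one, and in untreated KO against untreated WT colons Socs1 (0.0157) gained one. Under it Tlr9 had -0.58 in KO DSS against WT DSS colons, and in WT DSS against untreated WT colons Tlr5 had 0.055 and Myd88 -0.026. Depth limits Trem1 and Tlr5 most, which rested on as few as 5 and 10 counts in a library.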
